A study of Mus musculus with 26 samples.

Results

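Sox10, S100b, Mbp, Prx and Ngfr are genes by which peripheral nerve is commonly recognised in a mixed tissue, and their signals were followed in the mouse knee during the development of surgically induced osteoarthritis (OA). The genes were taken by name, and a probe set was taken as theirs when the array annotation gave it that gene symbol alone. Under that rule 4 of the 5 genes were measured, of 18194 genes with a probe set of their own on the array. Prx was not analysed here. The neurotrophin arm of the set rests on the receptor Ngfr. The 4 genes had 16 probe sets, of which 8 had a mean log2 signal above the median of all values on the arrays (7.93). Each gene is described by its brightest probe set, with its other probe sets beside it.

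DMM joints were those of male C57BL/6 mice in which the medial meniscus was destabilized by cutting the medial meniscotibial ligament at 12 weeks of age, and they were taken 2, 4, 8 and 16 weeks later, at ages of 14, 16, 20 and 28 weeks. Sham joints were those of mice of the same sex, strain and ages after a sham operation. Time 0 joints came from mice of 12 weeks with no operation. RNA from a block of the medial side of the knee, with cartilage, subchondral bone, meniscus, ligament, capsule and synovium, was pooled from 3 mice for each array, giving 11 DMM pools, 12 sham pools and 3 time 0 pools. There were 3 pools in each condition except DMM at 2 weeks, which had 2. The pool is thus the replicate, the spread among single mice was not measured, and an exact permutation test of 3 pools against 3 cannot give p below 0.1, nor 2 against 3 below 0.2. Adjusted p-values below come from limma fitted to all 26 arrays, with Benjamini-Hochberg adjustment over 22513 probe sets brighter than the level given above.

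Schwann cells ensheath the axons of peripheral nerves, either wrapping a large axon in myelin or holding a bundle of small ones. Sox10 is the transcription factor that fixes Schwann cell identity and drives myelin genes, S100b is a calcium-binding protein of the Schwann cell cytoplasm, Mbp is myelin basic protein, which packs the myelin membrane, and Prx is periaxin, a scaffold protein of myelinating Schwann cells. Ngfr is p75, the low-affinity receptor for the neurotrophins, which non-myelinating and injured Schwann cells carry. None of them is confined to nerve. Sox10 is also made by melanocytes, S100b by chondrocytes and fat cells, Ngfr by sensory neurons and stromal cells of marrow, and the Mbp locus also yields golli transcripts in cells of the blood lineages.

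Only some of the other genes of the Schwann cell were bright. Of 52 other Schwann cell and myelin genes, 49 were measured and 28 of these were above the median level. Erbb3, the receptor on which Schwann cells depend (mean 7.45), Egr2, the transcription factor of myelination (7.32), and Cdh19, a Schwann cell cadherin (6.77), were below it. Pmp22, a myelin protein that many other cells also make (11.12), and Dag1, dystroglycan (11.23), were among the brightest. Axon and sensory neuron genes were mostly dim, with 5 of 20 above the median level, and none of 6 oligodendrocyte genes was above it. Markers of marrow blood cells (20 of 21 above the median level), muscle (22 of 23), cartilage (17 of 18) and fat (14 of 15) were nearly all bright. In such bulk tissue, fewer cells of a type and less RNA per cell cannot be told apart. The arrays were otherwise even, with medians between 7.90 and 7.95. The muscle level, the mean log2 signal of 23 muscle genes, differed widely between pools and ran between 9.01 and 12.08 within the sham joints of 2 weeks alone.

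Mbp was the only one of the 4 genes that differed between DMM and sham joints in single weeks. It was lower after DMM at 2 weeks (1.22-fold) and at 4 weeks (1.19-fold), and close to sham at 8 and 16 weeks. S100b was lower after DMM as the mean over the course, with the widest gap at 8 weeks. No difference of Sox10 or Ngfr between DMM and sham passed the test in any week.

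**Figure D1:**
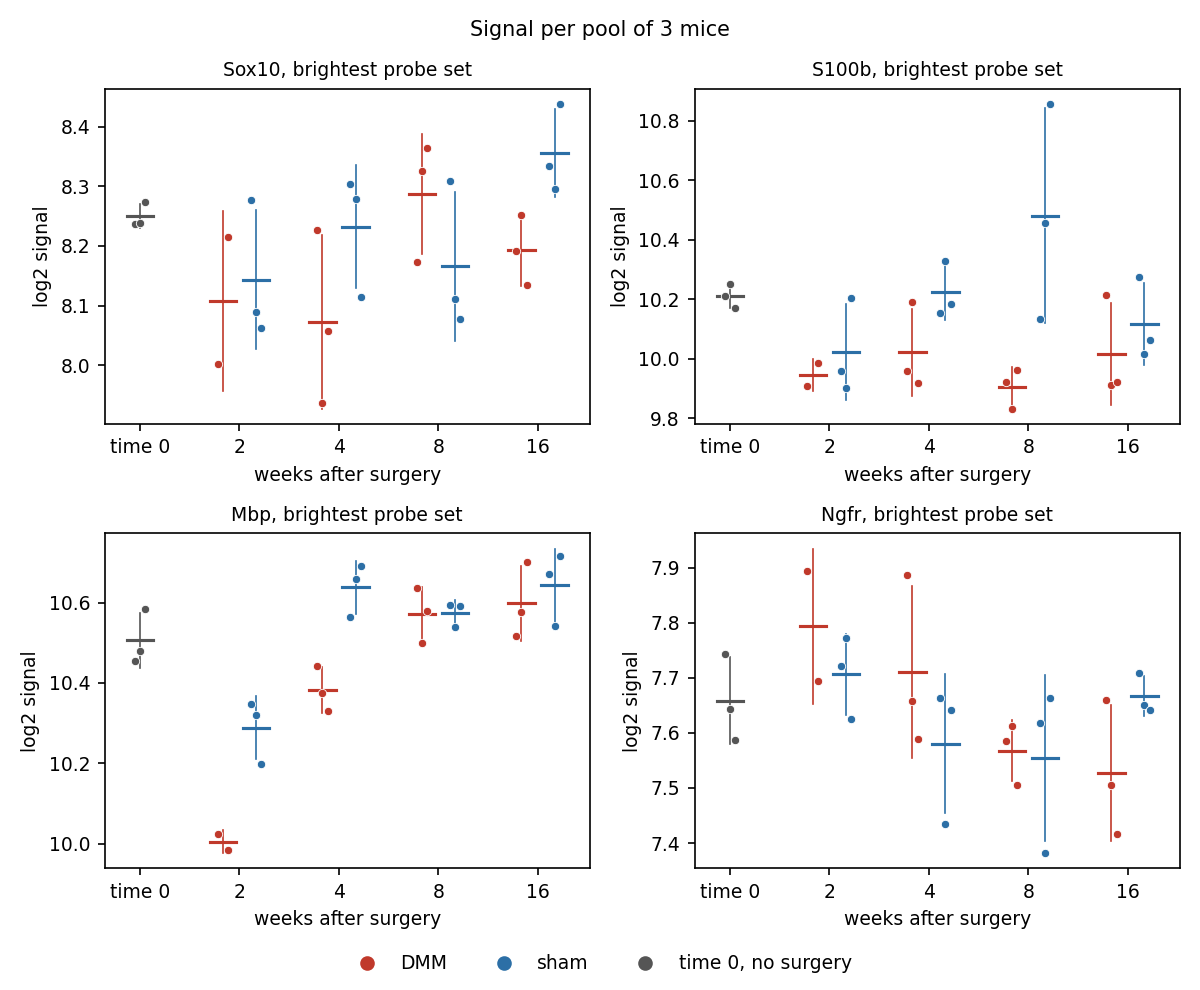
Log2 signal of the brightest probe set of Sox10, S100b, Mbp and Ngfr in each pool (points), with the mean (bar) and SD (line) of each condition, against weeks after surgery. The Mbp points of the DMM joints lie below those of the sham joints at 2 and 4 weeks, and the S100b points of the DMM joints lie below those of the sham joints at 8 weeks.

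The brightest Mbp probe set, 1425264_s_at, had log2 signals of 10.03 and 9.98 in the DMM pools of 2 weeks, against 10.35, 10.32 and 10.20 in the sham pools. At 4 weeks the DMM pools had 10.44, 10.37 and 10.33, and the sham pools had 10.56, 10.66 and 10.69. Every DMM pool of 2 and 4 weeks lay below every sham pool of its week. The log2 difference was −0.28 ± 0.07 (SE) at 2 weeks (limma, adjusted p = 0.041), a 1.22-fold lower signal, and −0.26 ± 0.06 at 4 weeks (adjusted p = 0.0091), a 1.19-fold lower signal. Over all probe sets tested, 2.43% differed between DMM and sham joints at 2 weeks and 19% at 4 weeks, so that 1 of 4 genes at each week is to be read against these shares. The call at 2 weeks was lost without DMM pool 2 (adjusted p = 0.126), DMM pool 3 (0.186), sham pool 1 (0.196) or sham pool 2 (0.0641), and the call at 4 weeks was kept without each pool in turn (adjusted p up to 0.049). The call at 2 weeks was also lost under 7 other settings, and that at 4 weeks with only the groups compared in the fit (adjusted p = 0.0652) and with the marrow covariate below.

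At 8 weeks the DMM pools had Mbp signals of 10.64, 10.50 and 10.58, and the sham pools had 10.59, 10.54 and 10.59. At 16 weeks the DMM pools had 10.52, 10.58 and 10.70, and the sham pools had 10.67, 10.54 and 10.72. The groups overlapped at both weeks, with log2 differences of −0.00 ± 0.06 (SE; limma, adjusted p = 0.984) and −0.05 ± 0.06 (adjusted p = 0.96). None of the 4 genes was called at either week (limma; 1 at 8 weeks, S100b, and 0 at 16 weeks at an unadjusted p under 0.05), where 0.00444% (8 weeks) and 0.0622% (16 weeks) of all probe sets were called. The test of the change between weeks did not pass: the difference at 4 weeks minus that at 8 weeks was −0.25 ± 0.09 (adjusted p = 0.0951), and that at 2 weeks minus that at 8 weeks was −0.28 ± 0.10 (adjusted p = 0.215). The 4 weekly differences averaged −0.15 ± 0.03 (adjusted p = 0.00408), a 1.11-fold lower signal. For this mean, 2 of the 4 genes were called, both lower, where 16.8% of all probe sets were called, 5.77% lower and 11% higher. The Mbp call was kept without each of 23 pools in turn.

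Among the 9 conditions, DMM at 2 weeks was lowest for Mbp with 10.01 ± 0.03 (SD, n = 2), then sham at 2 weeks with 10.29 ± 0.08 (n = 3) and DMM at 4 weeks with 10.38 ± 0.06 (n = 3), then time 0 with 10.51 ± 0.07 (n = 3), while the other 5 conditions averaged between 10.57 and 10.64. Neighbours in this order had overlapping pools except at 2 steps, from DMM to sham at 2 weeks and from DMM at 4 weeks to time 0. Relative to time 0, Mbp in DMM joints of 2 weeks fell by 0.50 ± 0.07 on the log2 scale (SE; limma, adjusted p = 5.4e-05), the only one of the 4 genes called there, where 29.5% of all probe sets were called. Sham joints of 2 weeks were also on the low side of time 0, by a difference of −0.22 ± 0.06 that missed the threshold (adjusted p = 0.0792). These 2 comparisons share the time 0 pools. Between 2 and 16 weeks Mbp rose in DMM joints by 0.59 ± 0.07 (adjusted p = 9.7e-06) and in sham joints by 0.35 ± 0.06 (adjusted p = 0.000431). Among the brightest probe sets of the 4 genes it alone was called in each, where 42% (DMM) and 30.6% (sham) of all probe sets were called. In sham joints the second probe sets of Sox10 and S100b were called as well, as given below. The comparisons of 16 with 2 weeks share their 2 week pools with those above. The cartilage level, the mean log2 signal of 18 chondrocyte genes, fell over the same weeks, to between 10.12 and 10.49 in DMM pools of 16 weeks, against 11.46 to 11.65 at 2 weeks. With it as a covariate neither rise was called (0.41, limma, adjusted p = 0.139 in DMM joints, and 0.14, adjusted p = 0.806 in sham joints). The cartilage levels of 2 and 16 weeks did not overlap in either kind of joint, so this fit cannot separate cartilage content from time.

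**Figure D2:**
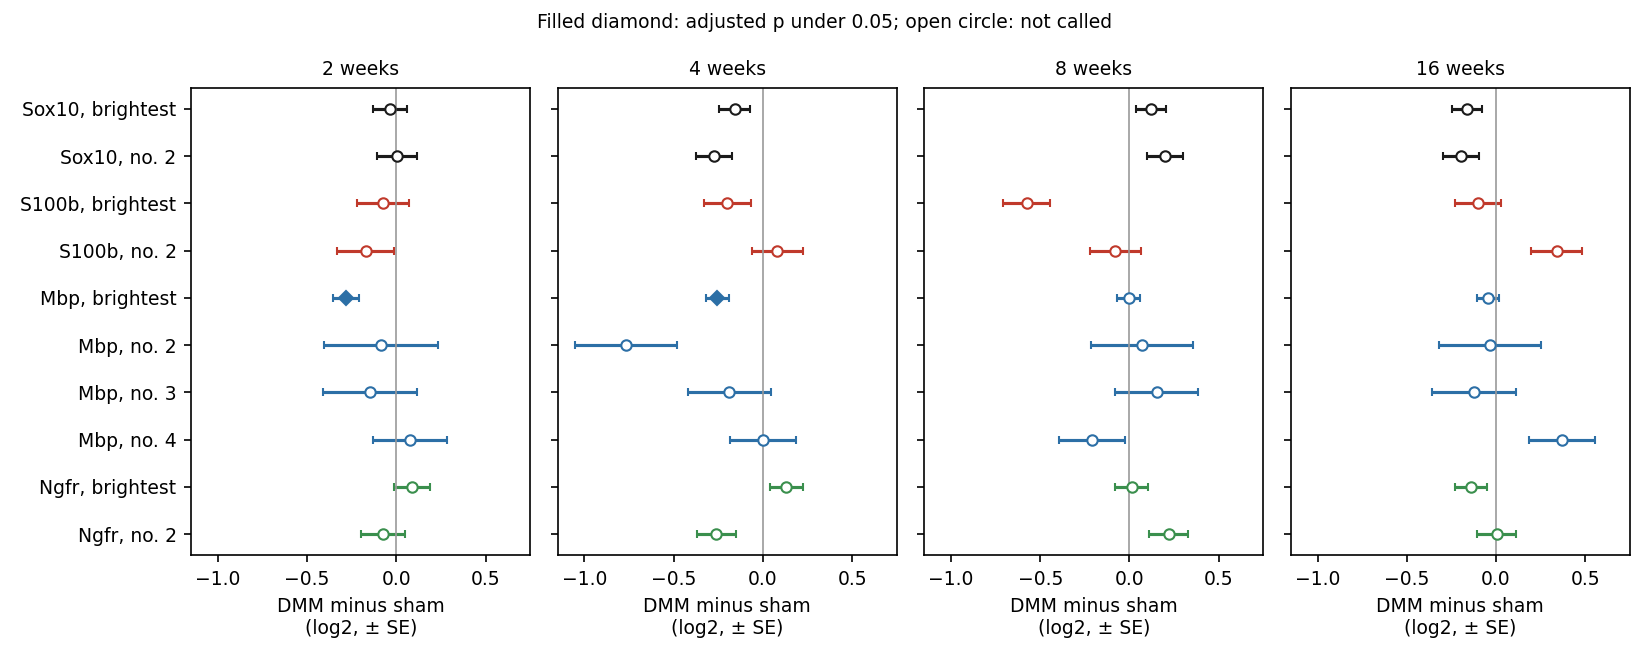
Log2 difference, DMM minus sham, with its standard error at 2, 4, 8 and 16 weeks, for the 2 brightest probe sets of Sox10, S100b and Ngfr and the 4 brightest of Mbp. Filled diamonds mark an adjusted p under 0.05, which the brightest Mbp probe set reached at 2 and 4 weeks and no other point did.

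The other probe sets of Mbp were less even. Probe sets of a gene can read different transcripts, and the suffix of the brightest one marks probes shared by several transcripts, which need not all be of 1 gene. Which of the Mbp and golli transcripts each probe set reads was not determined, nor whether the brightest also reads another gene. At 4 weeks the second, 1419646_a_at, had 9.41, 8.40 and 8.76 in DMM pools, against 9.63, 9.65 and 9.59 in sham pools. All DMM pools were lower, and the difference of −0.77 ± 0.29 (SE) was wider than that of the brightest probe set but not called (limma, adjusted p = 0.064). Its correlation with the brightest over the 26 arrays was 0.692. At 2 weeks it differed by −0.09 ± 0.32 (adjusted p = 0.92), with sham pools that ran between 7.91 and 9.42. The fourth, 1433532_a_at, differed by 0.08 ± 0.21 at 2 weeks and 0.00 ± 0.18 at 4 weeks, neither called. It rose in DMM joints between 2 and 16 weeks by 0.70 ± 0.21 (adjusted p = 0.00985), as did 2 dimmer probe sets, 1456228_x_at by 0.64 ± 0.21 (adjusted p = 0.0259) and 1454651_x_at by 0.62 ± 0.21 (adjusted p = 0.0307). These 3 probe sets ran closely together, at correlations between 0.848 and 0.961.

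The third Mbp probe set, 1425263_a_at, moved with the pool number instead of with the condition. It had between 7.94 and 8.32 in the 8 pools numbered 1 (median 8.14), against between 8.22 and 8.91 in the 18 pools numbered 2 and 3 (median 8.63). The brightest probe set showed no such offset, with medians of 10.54 in both sets of pools. No comparison of the third probe set between conditions passed the test.

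The brightest Mbp probe set ran with marrow genes and against the mean level of the other Schwann cell genes. That mean weighs 49 genes alike, of which 28 were above the median level. It includes Matn2 and Gpm6b, which other tissues also make and which were higher in DMM joints at 2 and 4 weeks. The part of single genes in this correlation was not tested. Of the brightest probe sets of 11503 genes above the median level, those most like it over the 26 arrays were Cks1b (r = 0.962), Rfwd3 (0.954), Btk (0.951), Nfe2 (0.950) and Cks2 (0.949). Cks1b and Cks2 encode subunits of the cyclin-dependent kinases, Btk the tyrosine kinase of B cells and myeloid cells, and Nfe2 a transcription factor of the red cell and platelet lineages. With the mean level of 21 marrow blood cell genes the correlation was 0.859, and with the mean level of 49 Schwann cell and myelin genes it was −0.907. Within conditions, that is over each pool's deviation from the mean of its condition, these were 0.570 (marrow) and −0.625 (Schwann cell). Over the 26 arrays the other 7 Mbp probe sets had weaker correlations, between 0.148 and 0.793 with the marrow level and between −0.641 and −0.295 with the Schwann cell level. Within conditions they ran between −0.078 and 0.677 (marrow) and between −0.409 and 0.180 (Schwann cell). The 0.677, of 1419646_a_at, was above that of the brightest probe set. Over the 26 arrays 4 of the 7 had a higher correlation with the muscle level (0.517 to 0.645) than with the marrow level. These are descriptions over arrays that share their conditions, and the part of other cell types in the Mbp signal was not tested.

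The marrow level, the mean log2 signal of those 21 genes, was lower in DMM than sham joints in the 2 weeks in which Mbp was lower. It ran between 11.39 and 11.44 in DMM pools and between 11.58 and 11.81 in sham pools at 2 weeks, and between 11.50 and 11.80 in DMM pools against 11.93 to 12.03 in sham pools at 4 weeks. At 8 weeks it ran between 11.87 and 11.95 in DMM pools and between 11.63 and 11.98 in sham pools. With the marrow level as a covariate, the Mbp difference was −0.18 at 2 weeks (limma, adjusted p = 0.213), −0.14 at 4 weeks (adjusted p = 0.313) and −0.10 for the mean over the 4 weeks (adjusted p = 0.0623), so that none of the 3 calls was kept. The marrow levels of DMM and sham pools did not overlap at 2 or 4 weeks, so this fit cannot separate marrow content from surgery.

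**Figure D3:**
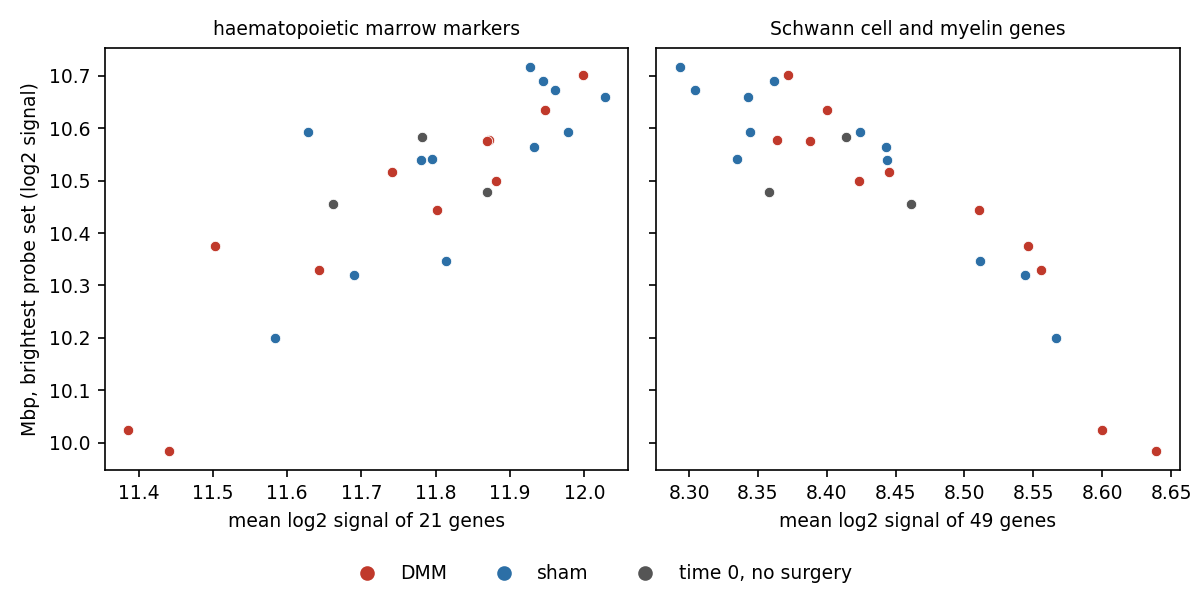
Log2 signal of the brightest Mbp probe set in the 26 pools against the mean log2 signal of 21 marrow blood cell genes (left) and of 49 Schwann cell and myelin genes (right), 1 point a pool. Mbp was high where the mean of the marrow genes was high (r = 0.859, and 0.570 within conditions). It was low where the mean of the 49 Schwann cell and myelin genes was high (r = −0.907, and −0.625 within conditions). The 2 DMM pools of 2 weeks lie at the end of each cloud.

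S100b had its widest gap at 8 weeks. The brightest probe set, 1419383_at, had 9.92, 9.83 and 9.96 in the DMM pools of 8 weeks, against 10.13, 10.46 and 10.86 in the sham pools. All DMM pools lay below all sham pools, and the sham pools had an SD of 0.36, the widest of the 9 conditions. The log2 difference was −0.58 ± 0.13 (SE), a 1.49-fold lower signal, and did not pass the test over all probe sets (limma, adjusted p = 0.149). In this week 1 probe set in all was called. Without sham pool 1 the difference was −0.75 and was called (adjusted p = 0.0108), and without sham pool 3, the highest of all 26, it was −0.39 (adjusted p = 0.63). At this week the muscle level ran between 10.24 and 11.07 in DMM pools and between 11.37 and 12.09 in sham pools, and the cartilage level between 10.38 and 10.65 in DMM pools and between 10.57 and 11.22 in sham pools. With the muscle level or the cartilage level as a covariate the difference was −0.66 (muscle, adjusted p = 0.172) and −0.51 (cartilage, adjusted p = 0.262). The muscle levels of these DMM and sham pools did not overlap, so the fit with muscle cannot separate muscle content from surgery.

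In the other weeks S100b was on the low side of sham with overlapping pools. At 2 weeks it had 9.91 and 9.98 in DMM pools, against 9.96, 9.90 and 10.20 in sham pools (difference −0.08 ± 0.15, SE; limma, adjusted p = 0.838). At 4 weeks it had 9.96, 10.19 and 9.92 in DMM pools, against 10.15, 10.33 and 10.19 in sham pools (−0.20 ± 0.13, adjusted p = 0.287). At 16 weeks it had 10.21, 9.91 and 9.92 in DMM pools, against 10.27, 10.02 and 10.06 in sham pools (−0.10 ± 0.13, adjusted p = 0.951). The mean over the 4 weeks was −0.24 ± 0.07 (adjusted p = 0.0189), a 1.18-fold lower signal. It was kept without each pool in turn (adjusted p up to 0.0467), but without the 8 week comparison the mean was −0.13 (adjusted p = 0.246). The weekly differences were not shown to be unequal, since that at 8 weeks did not differ from those at 2, 4 and 16 weeks by the test (adjusted p between 0.189 and 0.392).

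The brightest S100b probe set was also the only one of the 16 probe sets to come through the filter on the time course that the study used, which asks each of the 3 replicate courses for a signal log ratio (SLR) of at least 0.5 in some week and then for courses alike in shape and size. The first DMM course has no 2 week pool, and the detection step of the filter was replaced by the brightness level. The SLR of S100b at 8 weeks was −0.56, −0.65 and −0.52 in the 3 DMM courses. These 3 ratios share 1 sham mean, 10.48, which includes sham pool 3 at 10.86, so they are not independent. The filter was not rerun without that pool. The S100b probe set passed in the DMM course, as 1.64% of the bright probe sets did. None of the 16 passed in the sham course, where 1.77% did. Over all probe sets, with no brightness level, the shares were 1.37% in the DMM course and 1.21% in the sham course.

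The second S100b probe set, 1434342_at, did not follow the first, and the correlation between them over the 26 arrays was 0.053. It had 9.28 and 9.12 in DMM pools and 9.36, 9.14 and 9.62 in sham pools at 2 weeks, and between 8.92 and 9.44 in DMM pools against 9.16 to 9.36 in sham pools at 8 weeks. It fell with time in sham joints, to 8.68, 8.96 and 9.04 in the sham pools of 16 weeks, against 9.86, 9.38 and 9.59 in the time 0 pools. The groups did not overlap, and the difference was −0.71 ± 0.14 (SE; limma, adjusted p = 0.00461), a 1.64-fold lower signal, where 5.8% of all probe sets were called. Against sham joints of 2 weeks, those of 16 weeks were lower by a difference of −0.47 ± 0.14 (adjusted p = 0.0164), a call lost without sham pool 3 of 2 weeks (−0.35, adjusted p = 0.121) or sham pool 1 of 16 weeks (−0.37, adjusted p = 0.0995). In the DMM pools of 16 weeks it had 9.32, 9.18 and 9.21, all above the sham pools of that week, and this difference of 0.34 ± 0.14 was not called (adjusted p = 0.614). No comparison of DMM with sham was called for it.

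**Figure D4:**
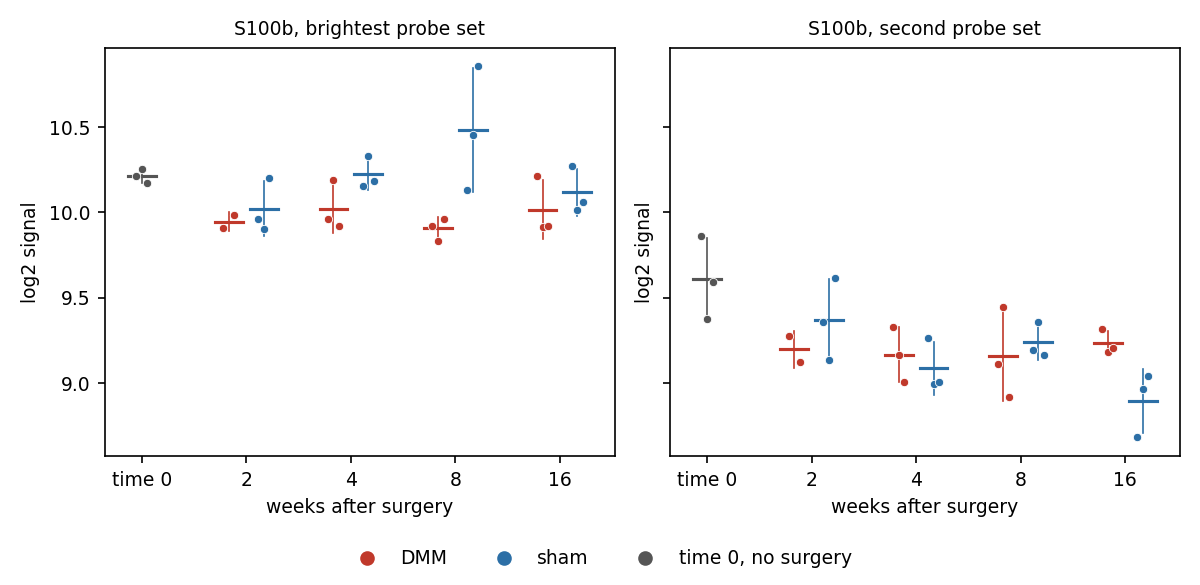
Log2 signal of the brightest and the second probe set of S100b in each pool (points), with the mean (bar) and SD (line) of each condition, against weeks after surgery. At 8 weeks the DMM pools of the brightest lie below the sham pools and those of the second overlap them, while the sham pools of 16 weeks in the second lie below the time 0 pools.

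The cartilage level fell over the same course, to between 9.85 and 10.09 in sham pools of 16 weeks, against 11.66 to 11.81 at time 0, and 15 of the 17 cartilage genes tested were lower there, where 4.48% of all probe sets were. The second S100b probe set had a correlation of 0.595 with this level and 0.523 with that of 15 fat cell genes, and the brightest had 0.087 (cartilage) and 0.356 (fat). Within conditions these were 0.181 (cartilage) and 0.270 (fat) for the second and 0.258 and −0.076 for the brightest. With the cartilage level as a covariate, the difference of the second probe set between sham at 16 weeks and time 0 was −0.43 (limma, adjusted p = 0.736). The cartilage levels of these 2 groups did not overlap, so this fit cannot separate cartilage content from time. The genes most like the brightest S100b probe set were Ciao2a (r = 0.864), Adpgk (0.849) and Zfp518a (0.847), of which Adpgk encodes a glucose kinase that uses ADP.

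Sox10 varied little. Its brightest probe set, 1451689_a_at, ran between 7.94 and 8.44 over the 26 pools, and the SD within conditions was 0.11. At 4 weeks it had 8.23, 7.94 and 8.06 in DMM pools, against 8.30, 8.28 and 8.11 in sham pools (difference −0.16 ± 0.09, SE; limma, adjusted p = 0.193). At 16 weeks it had 8.19, 8.25 and 8.13 in DMM pools, against 8.33, 8.30 and 8.44 in sham pools. These last groups did not overlap, with the highest DMM pool close below the lowest sham pool, and the difference of −0.16 ± 0.09 was not called (adjusted p = 0.718). The differences at 2 weeks, −0.04 ± 0.10, and at 8 weeks, 0.12 ± 0.09, were within the spread of the pools, as was the mean of −0.06 ± 0.04 over the 4 weeks (adjusted p = 0.39).

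The second Sox10 probe set, 1424985_a_at, followed the first (r = 0.796). At 4 weeks it had 8.04, 7.80 and 7.96 in DMM pools, against 8.22, 8.19 and 8.22 in sham pools. All DMM pools lay below all sham pools, and the difference of −0.28 ± 0.10 (SE) missed the threshold (limma, adjusted p = 0.0602). It rose in sham joints by 0.39 ± 0.10 between 2 and 16 weeks (adjusted p = 0.00674; 0.27, adjusted p = 0.0631, with the marrow level as a covariate), to 8.37 ± 0.18 at 16 weeks, against 7.98 ± 0.07 at 2 weeks (SD, n = 3 each). In that comparison the brightest probe set differed by 0.21 ± 0.09 (adjusted p = 0.0642). The third probe set had a mean of 6.74 and was not called anywhere. The genes most like Sox10 were Gpr27 (r = 0.893), Cyp4f15 (0.888) and Abcc5 (0.863). Sox10 had a correlation of −0.572 with the Schwann cell level, 0.640 with the marrow level and 0.688 with the level of 20 axon genes, most of them dim. Within conditions these were −0.005 (Schwann cell), 0.562 (marrow) and 0.697 (axon). Of 10 melanocyte genes, 4 were above the median level, Mitf (9.48), Kit (9.17), Ednrb (8.75) and Pmel (7.99), and 6 below it, among them the pigment enzymes Tyr (7.13) and Dct (6.49). The correlation of Sox10 with that list was 0.312, and 0.497 within conditions.

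Ngfr was dim in all conditions. The means of its 3 probe sets were 7.63, 6.88 and 6.76, below the median level, and its values come from the fit of all 45101 probe sets. The brightest, 1454903_at, had 7.89 and 7.69 in DMM pools and 7.72, 7.77 and 7.63 in sham pools at 2 weeks, and 7.89, 7.66 and 7.59 in DMM pools and 7.66, 7.44 and 7.64 in sham pools at 4 weeks. The pools overlapped in every week, and the differences were 0.09 ± 0.10 (SE, week 2), 0.13 ± 0.09 (week 4), 0.01 ± 0.09 (week 8) and −0.14 ± 0.09 (week 16) (limma, adjusted p between 0.369 and 0.978). All neighbours in the order of the 9 conditions overlapped, and the condition means lay between 7.53 for DMM at 16 weeks and 7.79 for DMM at 2 weeks. The second probe set had the opposite sign at 4 weeks, −0.26 ± 0.11 (adjusted p = 0.12), and had a correlation of −0.071 with the first. The genes most like Ngfr had lower correlations than those of the other genes, led by Gpatch3 (r = 0.779).

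In the sham time course none of the brightest probe sets of the 4 genes was called against time 0 at 2, 4, 8 or 16 weeks (limma, smallest adjusted p = 0.0792; 1, 0, 0 and 1 at an unadjusted p under 0.05), where 1.66%, 1.21%, 0.937% and 5.8% of all probe sets were called. In DMM joints of 4, 8 and 16 weeks against time 0 none was called either (smallest adjusted p = 0.224; 0, 1 and 0 at an unadjusted p under 0.05), where 8.17%, 0.742% and 1.73% were called. The difference between weeks in the effect of DMM was not called for any of the 4 genes (2 at an unadjusted p under 0.05 in each of the 3 tests), where 0.00444% (2 against 8 weeks), 1.59% (4 against 8 weeks) and 0% (16 against 8 weeks) of all probe sets were called. The 4 genes did not move as a group. Over the 26 arrays their brightest probe sets had correlations of 0.470 for Sox10 with Mbp, 0.268 for S100b with Mbp, −0.510 for Mbp with Ngfr, and between −0.170 and −0.128 for the other pairs. Within conditions they were 0.084 for Sox10 with Mbp, −0.141 for S100b with Mbp, 0.017 for Mbp with Ngfr and −0.402 for Sox10 with S100b, and the other 2 were 0.084 (Sox10 with Ngfr) and 0.016 (S100b with Ngfr).

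Most of the other Schwann cell and myelin genes tested were not called between DMM and sham joints. Of 28 tested, 2 were higher in DMM than sham joints at 2 weeks (Gpm6b and Matn2), 7 at 4 weeks and none at 8 or 16 weeks (4 and 6 at an unadjusted p under 0.05), and none was lower in any of these weeks. Among all probe sets, 1.62% were higher and 0.808% lower at 2 weeks, and 12.4% were higher and 6.68% lower at 4 weeks. Only 0.00444% of all probe sets were called at 8 weeks and 0.0622% at 16 weeks. The median difference of the 28 genes was 0.0017 at 2 weeks, against −0.0249 over all probe sets, and 0.07 at 4 weeks, against −0.01 over all probe sets. For the mean over the 4 weeks 7 of the 28 were higher and 1, Fgd4, lower. Over all probe sets 11% were higher and 5.77% lower for this mean. At 2 weeks no probe set was called with only the groups compared in the fit or with array weights, Gpm6b and Matn2 included. The 7 called at 4 weeks were Dhh, Dst, Gpm6b, Matn2, Nkd2, Dag1 and Mtmr2. The count was 3 without DMM pool 2, 4 without DMM pool 3 and 0 with the marrow level as a covariate. That level did not overlap between DMM and sham pools of 4 weeks, so the covariate cannot be separated from surgery. Matn2, matrilin-2, a matrix protein that tendon and other connective tissue also make, averaged 10.82 ± 0.30 in DMM joints and 8.86 ± 0.36 in sham joints at 4 weeks (SD, n = 3 each; difference 1.96 ± 0.28, SE; limma, adjusted p = 0.000522). Gpm6b, a membrane glycoprotein that bone-forming cells also make, averaged 11.08 ± 0.59 in DMM joints and 9.23 ± 0.35 in sham joints (difference 1.85 ± 0.26, adjusted p = 0.000522). Dst, dystonin, a linker of the cytoskeleton, was higher by 0.60 ± 0.14 (adjusted p = 0.00721). Dag1, the laminin receptor dystroglycan, was higher by 0.40 ± 0.12 (adjusted p = 0.0304), and Pmp22 differed by 0.40 ± 0.15 without a call (adjusted p = 0.0623).

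Of the other bright Schwann cell genes, Ndrg1, a gene mutated in a hereditary neuropathy, differed by −0.10 ± 0.07 (SE) at 4 weeks (limma, adjusted p = 0.321). Itga6, an integrin of laminin-bound cells, differed by −0.05 ± 0.06 (adjusted p = 0.565). Against time 0, sham joints of 16 weeks were lower in 4 of the 28 genes and higher in 1, Itga6, by 0.23 ± 0.06 (adjusted p = 0.0263). Fxyd3, a regulator of the sodium pump, was lower by a difference of −1.06 ± 0.13 (adjusted p = 3.8e-05), and Ncmap, a non-compact myelin protein, by −0.88 ± 0.09 (adjusted p = 1.6e-05), with 8.33 ± 0.05 in sham joints of 16 weeks and 9.21 ± 0.20 at time 0 (SD, n = 3 each). The other 2 lower genes were Matn2 and Adgrg6, an adhesion receptor that starts myelination. Among all probe sets 4.48% were lower in this comparison and 1.31% higher. The count of 4 was 2 without time 0 pool 1, time 0 pool 3 or sham pool 1, and 0 with the cartilage level as a covariate. That level did not overlap between these groups, so the covariate cannot be separated from time.

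The level of the 49 Schwann cell genes as a whole is their mean log2 signal. At 2 weeks it ran between 8.60 and 8.64 in DMM pools and between 8.51 and 8.57 in sham pools. At 4 weeks it ran between 8.51 and 8.56 in DMM pools and between 8.34 and 8.44 in sham pools. The groups overlapped at 8 weeks, with 8.36 to 8.42 in DMM pools and 8.34 to 8.44 in sham pools. At 16 weeks they did not, with 8.37 to 8.45 in DMM pools and 8.29 to 8.33 in sham pools. The 13 marrow stromal and perivascular genes ran between 10.53 and 10.71 in DMM pools and between 10.38 and 10.44 in sham pools at 4 weeks, with 6 of 13 higher and 1 lower by the test, where 12.4% of all probe sets were higher and 6.68% lower. The stromal pools overlapped at 2 and 8 weeks, and at 16 weeks ran from 10.29 to 10.31 (DMM) and from 10.20 to 10.22 (sham). Fat cell genes ran the other way at 4 weeks, between 9.60 and 9.91 in DMM pools and between 10.27 and 10.30 in sham pools, with 9 of 14 lower, against the same 6.68% of all probe sets. The fat cell level was 9.77 to 9.83 (DMM) and 10.06 to 10.54 (sham) at 2 weeks. It was 10.04 to 10.11 (DMM) and 10.14 to 10.43 (sham) at 8 weeks, and overlapped at 16 weeks. The part of these cell types in the results on the nerve genes was not tested.

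Most of the neurotrophic ligands were dim. Among 33 ligands, receptors and adaptors, 27 were measured and 16 tested. The ligands Bdnf (7.14), Artn (6.75), Gdnf (6.37) and Ntf5 (6.09) and the receptors Ntrk3 (7.75) and Ret (7.55) were below the median level, while the ligand Nrtn (8.52) and the receptor subunits Lifr (12.17), Il6st (11.27) and Ntrk2 (10.86) were above it. Each is the mean of a different probe set, so that the values are not levels to be compared between genes. Between DMM and sham joints 1 was lower at 2 weeks, 2 were higher and 1 lower at 4 weeks, and none was called at 8 or 16 weeks (4 and 3 at an unadjusted p under 0.05), with a median difference of −0.04 at 4 weeks, against −0.01 over all probe sets. The 3 of 16 called at 4 weeks are close to the 19% of all probe sets called in that week, and 2.43% were called at 2 weeks. At 8 and 16 weeks 0.00444% and 0.0622% of all probe sets were called. For the mean over the 4 weeks more of the list was called. Higher were 5 of the 16 (Maged1, Kidins220, Ngef, Gfra1 and Il6st) and lower were 3 (Sort1, Nrtn and Lifr). Over all probe sets 11% were higher and 5.77% lower for this mean.

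Sort1, sortilin, which pairs with Ngfr to bind pro-neurotrophins, was the gene that was lower at both early weeks. It averaged 9.81 ± 0.14 (SD, n = 2) in DMM joints and 10.26 ± 0.11 (n = 3) in sham joints at 2 weeks (difference −0.45 ± 0.08, SE; limma, adjusted p = 0.0135), and 10.11 ± 0.10 in DMM joints and 10.41 ± 0.05 in sham joints at 4 weeks (n = 3 each; difference −0.30 ± 0.07, adjusted p = 0.00829; not called without DMM pool 3 or sham pool 2 of 4 weeks). With only the groups compared in the fit, or with array weights, no probe set was called at 2 weeks, Sort1 included. The higher genes at 4 weeks were Maged1, an adaptor that binds the inner part of Ngfr, by 0.51 ± 0.10 (adjusted p = 0.00189), and Il6st, the shared receptor of the interleukin-6 family, by 0.46 ± 0.09 (adjusted p = 0.00283). Ntrk2, the receptor for brain-derived neurotrophic factor, averaged 10.53 ± 0.39 in DMM joints and 11.07 ± 0.30 in sham joints at 4 weeks (n = 3 each), a difference of −0.55 ± 0.20 that was not called (adjusted p = 0.0571). Kidins220, a scaffold for neurotrophin receptors, differed by 0.19 ± 0.07 (adjusted p = 0.0663). Against time 0, sham joints of 16 weeks were lower in 3 of the 16 genes, where 4.48% of all probe sets were lower and 1.31% higher. These were Ngef, an exchange factor of neurons (−0.56 ± 0.11, adjusted p = 0.00426), Lifr (−0.55 ± 0.11, adjusted p = 0.00544) and Maged1 (−0.50 ± 0.10, adjusted p = 0.00369).

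Of 5 axon genes bright enough to be tested, Npy, the neuropeptide of sympathetic fibres that marrow cells also make, was the only one called between DMM and sham joints. At 4 weeks it averaged 7.81 ± 0.13 in DMM joints and 8.31 ± 0.17 in sham joints (SD, n = 3 each; difference −0.50 ± 0.11, SE; limma, adjusted p = 0.00476). This 1 of 5 is close to the 19% of all probe sets called in that week. At 2, 8 and 16 weeks none of the 5 was called (2, 0 and 0 at an unadjusted p under 0.05). The shares of all probe sets called in those weeks were 2.43%, 0.00444% and 0.0622%. From a list of perineurial and endoneurial markers, genes of the sheaths of nerve, 6 were tested. The list includes Sox9, which also acts in chondrocytes. None was called between DMM and sham joints in any week (3, 4, 2 and 0 at an unadjusted p under 0.05). Over all probe sets 2.43%, 19%, 0.00444% and 0.0622% were called at 2, 4, 8 and 16 weeks. For the mean over the 4 weeks, 2 of the 6 were lower, Cldn1 and Sfrp5, and 0 higher. Over all probe sets 5.77% were lower and 11% higher for this mean.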

How the data were processed

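Affymetrix GeneChips of the mouse genome were hybridised, 1 array for each pool of 3 mice. The authors deposited log2 signal intensities normalised by systematic variation normalization (SVN), whose software version is not given in the sources used here. No detection calls were used. Probe sets were named from the platform annotation: 34958 had 1 symbol, 932 several and 9211 none. Of 45101 probe sets, the 22513 with a mean log2 signal above 7.93 were tested, and dimmer ones were taken from a fit of all.

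One coefficient for each of 9 conditions was fitted with limma (3.58.1, R 4.3.3; 17 residual degrees of freedom) on all arrays, with Benjamini-Hochberg adjustment and a threshold of 0.05, and the procedure was tested on simulated data. Tables and correlations were made with Python (3.11.15). The number of arrays limits the precision. Correlations carry no p-value, since arrays share their conditions. The level of a marker list is the mean of the log2 signals of the brightest probe set of each measured gene.

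The 5 genes and the gene lists were chosen with earlier results of these data known. Named from the lists were the 4 brightest Schwann cell and neurotrophin genes and the called genes with the largest differences, at most 8 a list, and other genes were named because they were called or define a cell type, after their values were seen. Pool numbers in the labels were paired at random by the study. The alternatives tried were no brightness filter, only the groups compared, array weights, quantile normalization, median centring, muscle, marrow, cartilage and Gapdh covariates, a replicate block, an intensity trend, each pool left out, and the other probe sets; the marrow and cartilage covariates and a mean without 8 weeks were added after seeing the data.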

Additional observations from a re-analysis of the deposited data

How the results depend on the processing

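Values are log2 differences, DMM minus sham unless said otherwise, with the limma adjusted p where a call changed. For Mbp at 2 weeks the difference stayed between −0.29 and −0.26 but lost its call with no brightness filter (−0.28, adjusted p = 0.0725), only the groups compared (−0.28, adjusted p = 0.578), array weights (−0.26, adjusted p = 0.413), arrays centred on their medians (−0.27, adjusted p = 0.0564), the Gapdh ratio as a covariate (−0.29, adjusted p = 0.0513) and a replicate block (−0.28, adjusted p = 0.0558), and it moved to −0.18 with the marrow covariate (adjusted p = 0.213). At 4 weeks it lost its call with only the groups compared (−0.26, adjusted p = 0.0652) and the marrow covariate (−0.14, adjusted p = 0.313), as did the mean over 4 weeks with the marrow covariate (−0.10, adjusted p = 0.0623). The Mbp rise between 2 and 16 weeks lost its call with the cartilage covariate, at 0.14 in sham joints (adjusted p = 0.806) and 0.41 in DMM joints (adjusted p = 0.139). At 8 weeks, where Mbp was not called, the sign turned to 0.016 with array weights, 0.013 with quantile normalization and 0.011 with the muscle covariate. S100b at 8 weeks gained a call with array weights (−0.56, adjusted p = 0.00273), and its mean lost the call without 8 weeks (−0.13, adjusted p = 0.246). The second S100b probe set, sham at 16 weeks against time 0, was −0.43 with the cartilage covariate (adjusted p = 0.736). With the marrow covariate the uncalled Sox10 differences became 0.11 at 2 weeks, 0.0074 at 4 weeks and 0.0091 for the mean. The uncalled Ngfr difference at 8 weeks became −0.0087 with quantile normalization and −0.010 with median centring. The cause of these changes was not tested, except that fewer arrays enter the fit with only the groups compared and more probe sets are adjusted over with no filter.

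The other probe sets of a gene gave other values. For Mbp, 1419646_a_at gave −0.088 at 2 weeks, −0.77 at 4 weeks, 0.070 at 8 weeks and −0.20 for the mean, −0.43 for DMM at 2 weeks against time 0, and 0.69 in sham and 0.74 in DMM joints for 16 against 2 weeks. The same comparisons gave −0.15, −0.19, 0.15, −0.076, −0.17, 0.089 and 0.11 for 1425263_a_at. For 1433532_a_at they were 0.077 at 2 weeks, 0.0011 at 4 weeks, 0.37 at 16 weeks and 0.060 for the mean, −0.22 for DMM at 2 weeks against time 0, 0.41 in sham joints for 16 against 2 weeks, and 0.21 for 4 against 8 weeks. Of these none was called. The second S100b probe set gave 0.080 at 4 weeks, 0.34 at 16 weeks and 0.042 for the mean, and the second Sox10 probe set 0.0036 at 2 weeks. For Ngfr, 1421241_at gave −0.076 at 2 weeks, −0.26 at 4 weeks, 0.0038 at 16 weeks and −0.028 for the mean, and 1450177_at −0.048 at 4 weeks, −0.064 at 8 weeks and −0.067 for the mean. Dimmer probe sets of Sox10 and Mbp were not tried as alternatives.

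The number of weekly DMM against sham calls among the 4 genes was 2. It was 1 with no filter, median centring, the Gapdh covariate or the replicate block, 0 with only the groups compared or the marrow covariate, and 4 with array weights. For sham against time 0 it was 0, and 1 with array weights, the muscle covariate or the cartilage covariate. For DMM against time 0 it was 1, and 2 with only the groups compared or the marrow covariate and 5 with array weights. For the mean it was 2, and 1 with the marrow covariate or without 8 weeks. For the change of the DMM effect between weeks it was 0, and 4 with array weights. For 16 against 2 weeks it was 2, and 0 with the cartilage covariate. Pools of the same number in different conditions had a median correlation of deviations of 0.078, with 45 of 100 pairs over 0.1, against −0.053, with 60 of 200 over 0.1, for pools of different numbers. The correlations were higher between pools numbered 1 (median 0.286) and in the 3 DMM and sham pairs of 8 weeks (0.475, 0.325 and 0.556), but not every pair of the other weeks was over 0.1, and the third Mbp probe set moved with the number. Whether the numbers mark a shared step of the work was not tested. At 8 weeks the S100b difference was −0.58 with the block (adjusted p = 0.136). The block changed no call of the 4 genes other than that of Mbp at 2 weeks.

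With single pools left out in turn the ranges were −0.33 to −0.25 for Mbp at 2 weeks, −0.29 to −0.23 at 4 weeks, −0.0365 to 0.032 at 8 weeks and −0.16 to −0.14 for the mean. S100b ran between −0.14 and 0.016 at 2 weeks, between −0.75 and −0.39 at 8 weeks and between −0.28 and −0.19 for the mean, Sox10 between −0.14 and 0.071 at 2 weeks, and Ngfr between −0.013 and 0.19 at 2 weeks, between −0.073 and 0.067 at 8 weeks and between −0.0022 and 0.048 for the mean. The number of calls ran between 1 and 3 for DMM against sham, between 0 and 1 for sham against time 0 (1 without sham pool 1 of 2 weeks, Mbp), and between 0 and 1 for the change of the DMM effect between weeks (1 without sham pool 1 of 8 weeks). Where 1 DMM pool of 2 weeks was left out, the remaining one was assumed to vary like the other groups. Sox10 and Ngfr lie near or below the median signal of the arrays, which limits what a difference in them can show.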
